A study of Drosophila melanogaster with 3 samples.

Results

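The Mmp1/Col4a1 class was a set of non-neuronal cells found among brain cells that had been sorted as Kenyon cells, the intrinsic neurons of the mushroom body. It held 1044 of the 8849 cells kept in the library of dSERT-TMKO and WT flies on day 0 (11.8%, exact 95% interval 11.1 to 12.5), against 15144 cells kept in the whole series. Members were chosen by their own transcript counts. A cell needed at least 1000 UMIs (counted transcript molecules) and at most 20% mitochondrial UMIs. It also needed Kenyon cell markers below 0.15% of its UMIs, fewer than 5 UMIs of the neuronal genes nSyb, elav, brp and Syt1, and fewer than 2 UMIs of alrm, a gene of astrocyte-like glia. The summed UMIs of Mmp1, GLaz, Tsf1, Col4a1 and CG9377, called M here, had to reach 5 and exceed 2 times each of the sums E (e, Eaat1, wun2 and Tre1) and Y (Ect3, Ork1, Ldsdh1, CG11159 and CG6908). These genes therefore describe the class and support nothing about it.

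The study sorted GFP-positive cells from the central brains of flies in which Mef2(P247)-gal4, a driver active in most Kenyon cells, expressed nuclear UAS-nls.GFP. It used 3 pools, each a single 10x Genomics library: dSERT-TMKO with WT on day 0, dSERT16, a mutant of the transporter, with its control dSERT4 on day 0, and, on day 4 to 6, dSERT-TMKO with WT together with CIT and VEH flies, which were WT flies fed citalopram, an inhibitor of the transporter, or the vehicle. The library described here pooled female flies on the day of eclosion that were either homozygous for dSERT-TMKO, a deletion covering much of the first and second transmembrane domains of the transporter, or WT, which carried the w1118 second chromosome. In both arms, the third chromosome came from different wild-type DGRP strains, and the driver and the reporter were shared by all flies. No table used here assigns a cell to a strain or genotype, so dSERT-TMKO and WT members could not be compared, and the library counts as 1 sample. Cells of 1 library are not replicates, and every interval below covers counting error only.

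Glia of the fly brain share the transcription factor Repo and fall into perineurial and subperineurial glia of the blood-brain barrier, cortex glia around neuronal cell bodies, and ensheathing and astrocyte-like glia of the neuropil. Perineurial glia lie directly under the basement membrane that covers the brain and carry sugar transporters. Collagen IV, the main collagen of that membrane, is also made in large amounts by hemocytes and fat body, so that Col4a1 alone does not mark a glial cell.

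The library held 9404 barcodes and 61833329 UMIs. The members had a median of 5517.5 UMIs (1008 to 19970) and 1461 genes a cell, and a median of 4.25% mitochondrial UMIs. Kenyon-marker cells, those at or above the limit for Kenyon cell markers, were deeper and had fewer mitochondrial UMIs, with medians of 7221 UMIs and 1.48%. Of the other classes of the library, 3663 cells had 2 or more alrm UMIs (alrm class), 547 cells were led by the Y sum (Ect3/Ork1 class), 25 by the E sum (Ebony/Eaat1 class), 719 met no rule, and 257 had 5 or more UMIs of the neuronal genes. The same rule found 11 of 3299 cells in the dSERT4 and dSERT16 pool of day 0 (0.333%) and 7 of 2996 in the pool of day 4 to 6 (0.234%), so nearly all such cells lay in 1 library. That library as a whole held more non-Kenyon cells, with 29.3% Kenyon-marker cells, compared with 94.8% and 99.1% in the others. Scrublet predicted no doublet among the members and 326 among all 8849 cells (3.68%). Of these, 189 were Kenyon-marker cells (7.29% of that class). Members shared 1 barcode with the pool of day 4 to 6 and 0 with the other pool.

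Tsf1 and Col4a1 carried most of the sum that defined the class. Tsf1, which encodes a secreted iron-binding transferrin (FBgn0022355, X, 18387084 to 18390344, BDGP6), made up 48.1% of all M UMIs, and Col4a1, the alpha1 chain of collagen IV (FBgn0000299, 2L, 5029609 to 5037279), 33.8%. GLaz, a lipocalin of the apolipoprotein D family, gave 7.71%, CG9377 6.18%, and Mmp1, a matrix metalloproteinase, 4.25%. A UMI of Col4a1 was found in 92.0% of members, of Tsf1 in 89.5%, of GLaz in 78.0%, of Mmp1 in 31.4% and of CG9377 in 26.5%. After every cell had been thinned to 1000 UMIs the shares were 78.3%, 74.4%, 40.3%, 14.0% and 12.8%. Kenyon-marker cells, with their predicted doublets kept, give a level for free RNA. In them the shares were 13.8%, 20.6%, 8.79%, 2.43% and 3.39% before thinning and 5.20%, 5.51%, 1.81%, 0.655% and 0.655% after it. Most members therefore owed their place to Tsf1 and Col4a1, and no Mmp1 UMI was found in most of the cells that carry its name.

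The rule genes were unevenly spread over the members. M ranged from 5 to 495 UMIs a cell with a median of 37, Tsf1 from 0 to 452 with a median of 11, and Col4a1 from 0 to 151 with a median of 12. The 104 members richest in CG9377 held 90.1% of its UMIs, and the 104 richest in Mmp1 held 79.1% of its UMIs, compared with 34.1% for Col4a1 and 32.8% for GLaz. All 5 genes had a UMI in 88 members, 3 or more in 793, and only 1 in 78. Tsf1 and Col4a1 were both present in 856 members, Tsf1 without Col4a1 in 78, Col4a1 without Tsf1 in 104, and neither in 6.

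**Figure D1:**
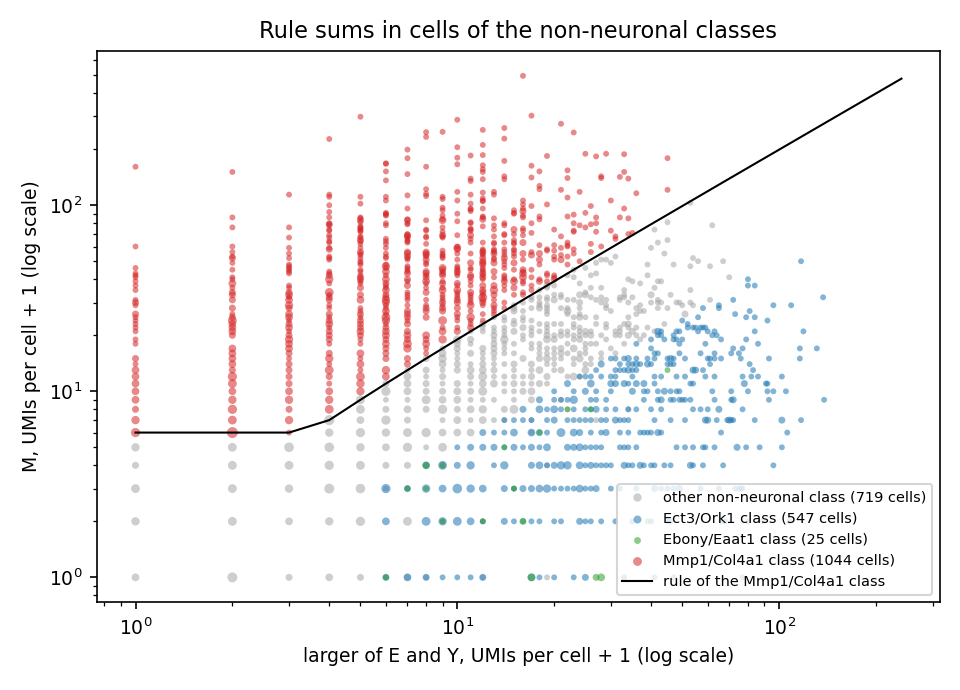
Sum M against the larger of the sums E and Y in each cell, both as UMIs per cell plus 1 on log axes, for the 4 classes split by these sums, with point area growing with the number of cells at that position. The line is the rule of the class, and the 1044 members above it run into the cells below without a gap.

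Cells lay close to both sides of the limits. M was exactly 5 in 19 members, and it was at most 2.5 times the larger of E and Y in 91. Outside, 561 cells reached 5 M UMIs and missed the margin, 131 of them with M over 1.5 times the larger sum. The 91 cells just inside had 1828 CPM (UMIs per 1000000 UMIs of the summed cells) of Tsf1 and 1880 CPM of Col4a1, and the 131 just outside 1207 and 1698 CPM. For repo the values were 218 CPM (180 to 261) inside and 228 CPM (195 to 264) outside, and the intervals overlapped. No gap in these sums separated the members from the cells outside.

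Whether these cells were glia was read first from repo, which the rule did not use. The gene (FBgn0011701, 3R, 18236192 to 18239602), encoding the homeodomain factor of most fly glia, stood at 243 CPM in the members (exact Poisson 95% interval 231 to 255, 1482 UMIs). It stood at 266 CPM in the Ect3/Ork1 class, 240 CPM in the alrm class, 241 CPM in the cells that met no rule, 47.1 CPM in neuron-marker cells and 21.8 CPM in Kenyon-marker cells. The members were 11.1-fold above Kenyon-marker cells (10.0 to 12.4) and 1.01-fold of the alrm class (0.955 to 1.07). A repo UMI was found in 66.8% of members (63.8 to 69.6), 70.9% of alrm cells and 8.91% of Kenyon-marker cells. Thinned to 1000 UMIs, these shares were 21.4% (18.9 to 24.0), 20.7% and 1.89%. In the 25 cells of the Ebony/Eaat1 class, with a median of 1544 UMIs, the shares were 28.0% (12.1 to 49.4) and 16.0% (4.54 to 36.1). The repo level of the members was thus near that of the alrm and Ect3/Ork1 classes and of the cells that met no rule. It was well above the level of the neurons beside them. The level of those neurons can hold kept doublets as well as free RNA.

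**Figure D2:**
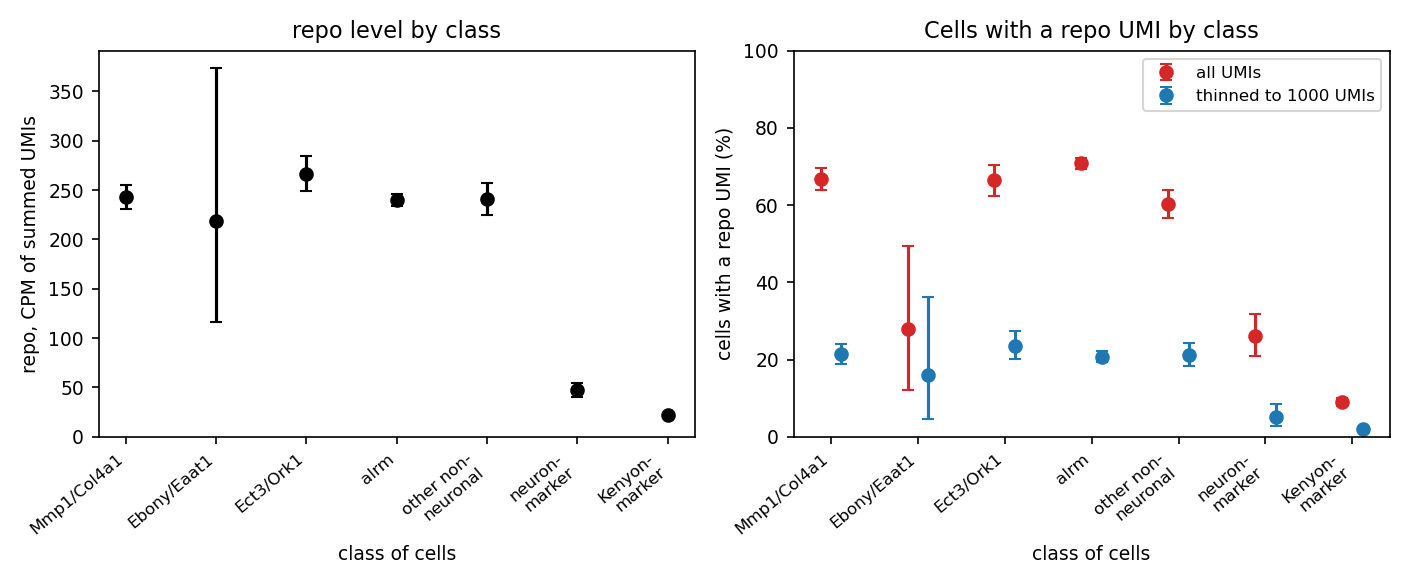
Left, repo in CPM of the summed UMIs of each class, with exact Poisson 95% intervals. Right, the percentage of cells with a repo UMI before thinning (red) and after thinning to 1000 UMIs (blue), with exact binomial 95% intervals. The members (66.8% and 21.4%) sit near the Ect3/Ork1 and alrm classes and the cells that met no rule. They sit above the neuron-marker and Kenyon-marker cells. The Ebony/Eaat1 class is lower than the members before thinning (28.0%).

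The other general glial genes were also above their level in Kenyon-marker cells. nrv2, a beta subunit of the sodium pump, was at 11661 CPM, 10.8-fold the Kenyon-marker level (10.7 to 11.0) and 0.960-fold the alrm level. Inx2, a gap junction protein, was at 1277 CPM, 7.57-fold the Kenyon-marker level, and Gs2, glutamine synthetase, at 4654 CPM, 6.09-fold. loco, a regulator of G protein signalling in barrier glia, was at 59.5 CPM (53.5 to 65.9), compared with 2.92 CPM in Kenyon-marker cells. Of these 5 genes, 704 members (67.4%) had a UMI of 4 or more, while 179 Kenyon-marker cells (6.90%) did. Gs2 and Inx2 were lower in the members than in the alrm class, at 0.291-fold (0.288 to 0.295) and 0.459-fold (0.449 to 0.470). None of the 5 passed a 4-fold difference from the alrm or Ect3/Ork1 class.

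Defining genes of other tissues rich in collagen IV were at or near 0 over the whole class, and some lists held genes with higher levels. Among 12 hemocyte markers, Hml had 0.819 CPM, all in 1 member, srp and NimC1 0.164 CPM each, and He and eater 0. The list summed to 107 CPM in the members and 219 CPM in Kenyon-marker cells, and crq, a scavenger receptor, accounted for 89.0 CPM of it in the members. Among 15 fat body markers, Fbp1 had 0.655 CPM and Lsp2 0.164 CPM, and Fbp2, Lsp1alpha, Lsp1beta and AkhR had none. The fat body list still summed to 1079 CPM, since apolpp, the precursor of the lipid carrier lipophorin, was at 758 CPM. apolpp was at 661 CPM in the Ect3/Ork1 class and 851 CPM in the alrm class as well. A count of 0 over the class allows up to 0.492 CPM. Of the 10 photoreceptor genes, ninaE, the main rhodopsin, had 0 UMIs and norpA, a phospholipase C, gave 323 of the 324 CPM, with 377 CPM in the Ect3/Ork1 class and 248 CPM in Kenyon-marker cells. Of the 7 ring gland genes, phm and dib had 0 UMIs and Kr-h1, a zinc finger factor, gave 144 of the 146 CPM. The 8 genes of pigment or cone cells summed to 3665 CPM in the members, 3719 CPM in the Ect3/Ork1 class and 3504 CPM in the alrm class, with ct, a homeodomain factor, at 3261 CPM and santa-maria, a scavenger receptor, at 320 CPM in the members. Mhc of muscle had 0 UMIs. Of the muscle list (12 genes, 41.9 CPM in sum), trachea (7 genes, 5.08 CPM) and cuticle epithelium (9 genes, 11.5 CPM), only Act79B and Mlp84B reached 10 CPM.

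**Figure D3:**
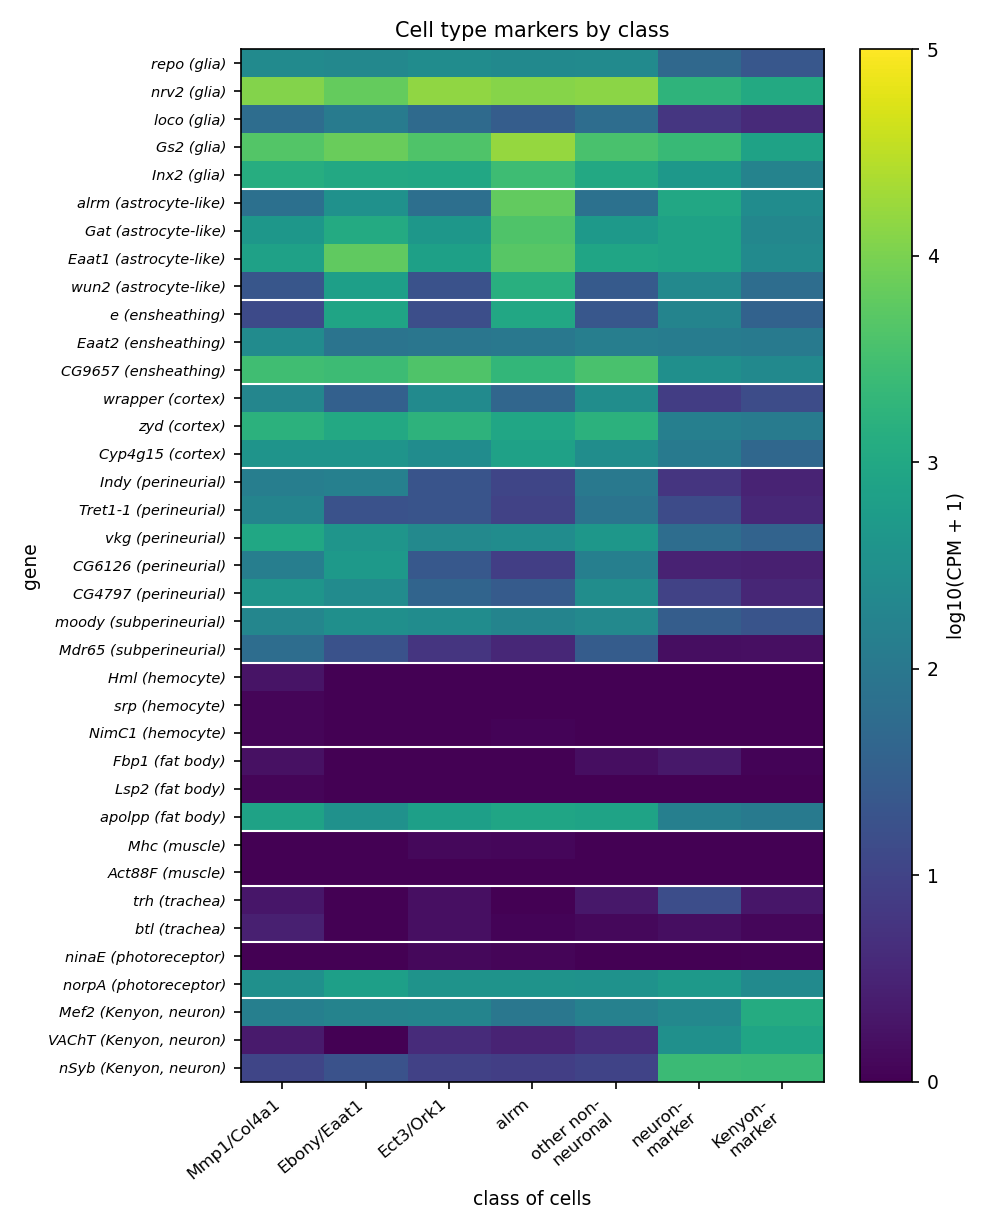
Cell type markers in rows and the 7 classes of cells in columns, coloured by log10(CPM + 1), with the list of each gene in brackets. The members share the glial rows with the other non-neuronal classes and are dark in the rows of hemocyte, muscle and tracheal genes, whereas apolpp and norpA are bright in every class.

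Markers of the glial subtypes were compared next. Since the rule limited alrm, e, Eaat1, wun2 and Tre1, their levels are no finding. Outside the rule, the astrocyte-like list held Gat and Obp44a. Gat, a GABA transporter, was at 444 CPM in the members, 4213 CPM in the alrm class and 446 CPM in the Ect3/Ork1 class, whereas Obp44a, an odorant-binding protein of glia, was at 26372, 36120 and 54490 CPM. Of the ensheathing list, CG9657 was at 2993 CPM in the members and 2084 and 4254 CPM in these classes, and Idgf5 had 0 UMIs. Eaat2, a transporter of excitatory amino acids on the same list, was at 257 CPM (244 to 270) in the members and 101 and 91.2 CPM there. Of the cortex glia genes, zyd, a calcium exchanger, was at 1636 CPM, Cyp4g15 at 390 CPM and wrapper at 200 CPM in the members, and 1699, 269 and 245 CPM in the Ect3/Ork1 class. Of 8 subperineurial markers, moody, a receptor of barrier glia, had 194 CPM, compared with 274 CPM in the Ect3/Ork1 class and 183 CPM in the alrm class, whereas Gli was at 1.47 CPM. Of the 6 perineurial markers 5 were at least 4-fold higher in the members than in the Ect3/Ork1 class, and 5 than in the alrm class, the exceptions being Jupiter at 3.08-fold in the former and vkg at 3.61-fold in the latter. The shares of all genes called higher in these comparisons were 3.42% and 3.42%. Since vkg was found together with the rule gene Col4a1 in most members, its level can follow from the rule. Jupiter was at 97.0 CPM in the members and 412 CPM in Kenyon-marker cells, so its level over the whole class marks no perineurial cells. None of the 6 was called in either comparison once the 85 cells of sub-cluster 6, described below, were left out. Jupiter was then at 13.7 CPM in the remaining members, so much of its level came from those 85 cells.

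Mef2, whose enhancer drives the sorted reporter, was at 140 CPM in the members (131 to 150), 11.7% of the 1200 CPM in Kenyon-marker cells. A UMI of it was found in 45.9% of members and 95.7% of Kenyon-marker cells, and after thinning in 13.5% and 64.9%. Other Kenyon cell transcripts were at a smaller share of their Kenyon-marker level. VAChT, the vesicular acetylcholine transporter, was at 1.31 CPM in the members and 881 CPM in Kenyon-marker cells (0.149%), and 5-HT1A at 0.492 and 425 CPM (0.116%). VAChT and 5-HT1A were not in the rule, though the neuronal genes limited by it move with them. The alrm class had 94.3 CPM of Mef2 and the Ect3/Ork1 class 183 CPM. Whether this level bears on the presence of these cells in the sort was not tested.

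Most genes had similar levels in the members and the neighbouring classes. Of 4998 genes at 10 CPM or more in the members or the Ect3/Ork1 class, rule genes left out, 171 were at least 4-fold higher in the members (3.42%) and 25 at least 4-fold lower (0.5%). Of 5036 genes compared with the alrm class, 172 were higher (3.42%) and 62 lower (1.23%). The ratio was within 2-fold for 85.2% of genes against the Ect3/Ork1 class and 85.3% against the alrm class, and the median log2 ratios were 0.25 and 0.20. Since E and Y had to be low in the members and M high, genes that move with these sums differ by construction, and the counts describe the classes without a test. The Ebony/Eaat1 class held 25 cells and 59504 UMIs and could hardly be compared: 20 of 5658 genes were called higher in the members (0.353%) and 143 lower (2.53%). Among the leading lower genes there, CG14661, CG10553 and Prx2540-2 each had a UMI in a single cell of the 25 (4%). Each of these levels therefore rests on a single cell, and whether it was the same cell was not tested.

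Among genes at 100 CPM or more in the members, those with the highest ratio to their highest other class were CG16743, Oatp74D, CG5080, sog and sbm. CG16743 (FBgn0032322, 2L, 10972280 to 10973408) was at 849 CPM (826 to 872), 14.5-fold the Ect3/Ork1 level (12.6 to 16.9) and 6.67-fold the alrm level (6.38 to 6.97). Oatp74D, which imports the steroid ecdysone, was at 196 CPM, 17.8-fold (12.8 to 25.6) and 4.56-fold (4.20 to 4.96). sog, a secreted antagonist of BMP signalling, was at 214 CPM, 6.80-fold and 15.3-fold, and sbm, an amino acid transporter, at 258 CPM, 10.6-fold and 12.1-fold. CG5080, at 145 CPM, had all of its 885 UMIs in 29 members. The remaining genes among the 15 were GstD9, vkg, CG6910, Tret1-1, CG10433, euc, scny, CG45676, Eaat2 and Orct, from 2.09-fold (euc) to 25.3-fold (CG6910) the Ect3/Ork1 level. As shown next, some of these levels came from several sub-clusters of the members and others from a small group of cells.

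The members fell into 8 sub-clusters of 300, 263, 142, 107, 93, 85, 37 and 17 cells. Sub-clusters are made from the genes that are then compared, so their values are a description. The 85 cells of sub-cluster 6 (8.14% of members) stood furthest apart. Their leading genes were CG6126, CG6910, CG8034, CG4797 and CG4462, and Vmat, the vesicular monoamine transporter, was at 2075 CPM. Of 6 perineurial markers 5 were detected, and the sub-cluster is called perineurial-like for that reason. Tret1-1, a trehalose transporter, was at 2109 CPM (1981 to 2243) there and at 0 to 88.7 CPM in the other 7 sub-clusters. Indy, a carboxylate transporter, was at 1707 CPM and elsewhere at 0 to 29.2 CPM, CG4797 at 5219 CPM and elsewhere at 0 to 5.85 CPM, and CG6126 at 1768 CPM and elsewhere at 0 to 2.26 CPM. Of the subperineurial list, Mdr65, an ABC transporter, and svp were detected in it as well. The median share of mitochondrial UMIs was 8.12%, the highest of the sub-clusters, and its part in these values was not tested.

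Among the general glial genes, loco, nrv2 and Inx2 set the perineurial-like cells apart from the other members, and repo did not. repo was at 176 CPM (140 to 217) with a UMI in 48.2% of the 85 cells. In the other sub-clusters that share ran from 43.2% (sub-cluster 7) to 82.4% (sub-cluster 8). loco was at 322 CPM (273 to 377), compared with 17.1 to 70.2 CPM in the other sub-clusters. nrv2 was at 297 CPM and Gs2 at 382 CPM, under the 1076 and 764 CPM of Kenyon-marker cells, and Inx2 at 117 CPM. In every other sub-cluster nrv2 was at 7204 CPM or more. In these 85 cells repo and loco were thus above the Kenyon-marker level, and in each of the other sub-clusters repo, loco, nrv2 and Inx2 were. Gs2 was at or above 3611 CPM in sub-clusters 1 to 5. It did not meet the limits for a detected marker, given below, in sub-clusters 6, 7 and 8.

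Most of these 85 cells joined the class through collagen IV, with a Col4a1 UMI in 76 of them. Col4a1 was at 6514 CPM in them (6288 to 6747) and Tsf1 at 376 CPM, GLaz at 62.7 CPM and CG9377 at 4.18 CPM. They gave 18.6% of the Col4a1 UMIs of the members, 12.5% of the Mmp1 UMIs, found in 14 of the cells, 0.754% of the Tsf1 UMIs, 0.783% of the GLaz UMIs and 0.0652% of the CG9377 UMIs, from 7.84% of all UMIs. Col4a1 without Tsf1 was found in 60 of them, Tsf1 without Col4a1 in 6 and neither in 3, and 46 had a UMI of only 1 rule gene. Sub-clusters 7 and 8 were the mirror image. Tsf1 was at 9463 and 6045 CPM in them, with a UMI in every cell, while Col4a1 had 5 UMIs in sub-cluster 7 and 2 in sub-cluster 8, and vkg, the alpha2 chain of collagen IV, had 3 and 0. The 5 rule genes therefore joined cells that did not share them.

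The small perineurial-like group carried a large part of the genes that set the class apart. Of the UMIs of the members, it held 99.6% for CG6910, 99.8% for CG6126, 99.6% for CG4797, 98.5% for CG5080, 96.5% for sog, 95.9% for Indy, 93.5% for Tret1-1, 84.1% for sbm and 60.1% for Oatp74D. For the 171 genes higher than in the Ect3/Ork1 class, the median share of UMIs in these cells was 73.8%, and for the 172 genes higher than in the alrm class it was 88.3%. Without the 85 cells, 69 genes were called higher than in the Ect3/Ork1 class and 45 higher than in the alrm class, and 66 and 40 of these were among the original calls. With members limited to those with a UMI of at least 3 rule genes, a choice made after the values were seen, the counts were 78 and 44. That limit kept only 9 of the 85 cells, so these counts are not separate from those without sub-cluster 6. repo hardly moved, at 249 CPM without the 85 cells.

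**Figure D4:**
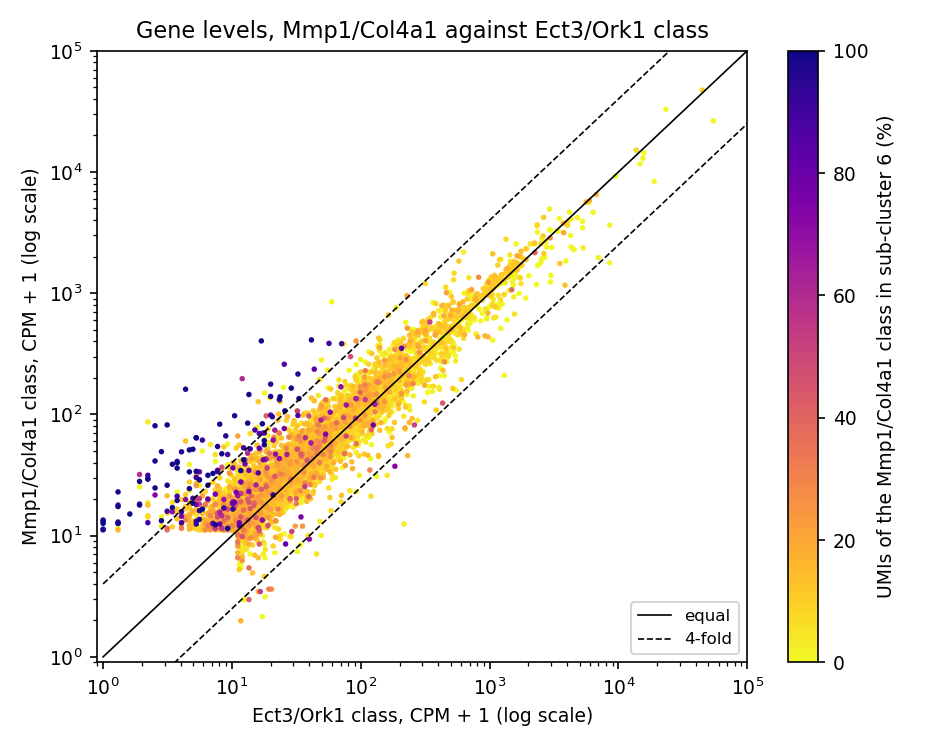
Each point is a gene at 10 CPM or more in the Mmp1/Col4a1 or the Ect3/Ork1 class, rule genes left out, with its CPM plus 1 in both classes on log axes and its colour giving the share of the members' UMIs that came from sub-cluster 6. Dark points, genes found mainly in those 85 cells, make up much of the group above the upper 4-fold line, and most genes lie near the line of equal levels.

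Of the genes that remained higher without the perineurial-like cells, some were spread over several sub-clusters and others came mainly from a small one. Among the 69 genes higher than in the Ect3/Ork1 class, 14 had most of their remaining UMIs in a single sub-cluster, 7 of them in sub-cluster 5. Among the 45 higher than in the alrm class this held for 21, of which 10 were in the 17 cells of sub-cluster 8. Fas3 had 87.2% of the UMIs of all members in sub-cluster 5, and SPR 73.4% in sub-cluster 8. CG16743 had 4 of its 5181 UMIs in sub-cluster 6, and it was at 920 CPM in the other members, 15.7-fold the Ect3/Ork1 level. Only 388 of the 1044 members had a UMI of it, and the 104 richest held 75.5% of its UMIs. It was at 750 to 1531 CPM in sub-clusters 1, 2, 3, 5, 7 and 8 and at 15.8 CPM in sub-cluster 4. GstD9, a glutathione transferase, was at 302 CPM, 6.21-fold the Ect3/Ork1 level, and highest in sub-cluster 4 at 743 CPM. fabp, a fatty acid binding protein, was at 1188 CPM, 4.34-fold the alrm level, and reached 8732 CPM in sub-cluster 7 and 5241 CPM in sub-cluster 8. Orct, an organic cation transporter, was at 297 CPM, 5.10-fold the alrm level, and rho, a protease that activates EGF receptor ligands, at 412 CPM, 5.66-fold the Ect3/Ork1 level.

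**Figure D5:**
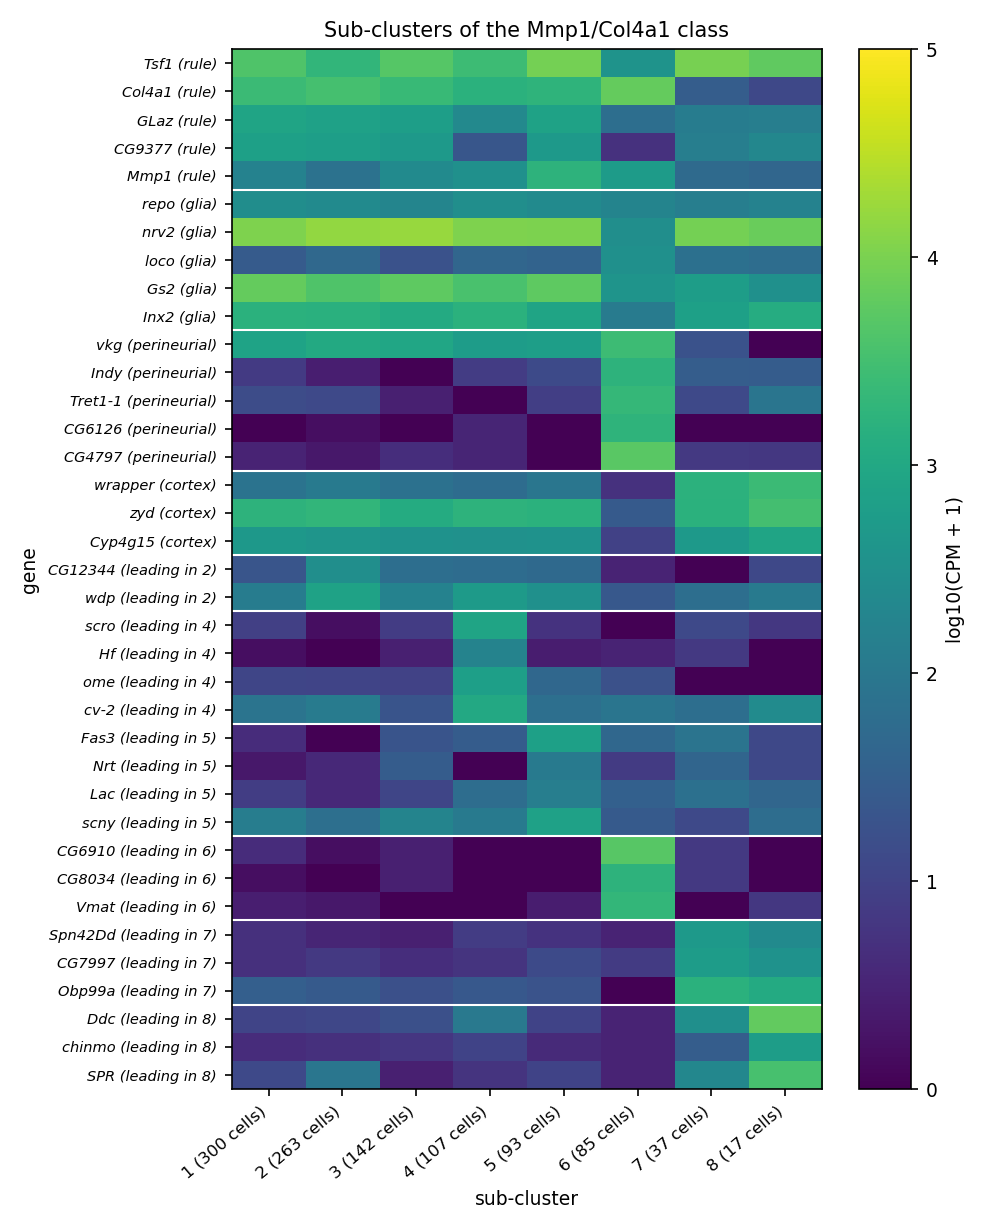
Genes in rows and the 8 sub-clusters of the members in columns, coloured by log10(CPM + 1), with the reason for showing each gene in brackets. Sub-cluster 6 is bright in the perineurial rows, darker in the nrv2 row than every other sub-cluster, and darker in the Gs2 row than sub-clusters 1 to 5. Sub-clusters 7 and 8, in which Gs2 was not a detected marker either, are dark for Col4a1 and vkg and bright for wrapper.

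Mmp1 belonged mainly to sub-cluster 5. Its 93 cells held 53.3% of all Mmp1 UMIs, at 1691 CPM (1593 to 1792) with a UMI in 95.7% of them, compared with 44.4 to 552 CPM in the other sub-clusters. Every cell of sub-cluster 5 also had Tsf1, at 9219 CPM. It was led by Fas3 and Nrt, both cell adhesion proteins, asRNA:CR42860, Mmp1 and Lac, also an adhesion protein, and Fas3 was at 687 CPM in it and 0 to 81.9 CPM in the others. rho was highest there as well, at 1426 CPM. Sub-cluster 4 (107 cells) was led by Hf, scro, a homeodomain factor, ome, spok and Stacl, with a scro UMI in 87.9% of its cells and a spok UMI in 17.8%. scro was at 833 CPM in it and at 0 to 11.7 CPM in the others, CG9377 was at 20.4 CPM, and cv-2, a BMP-binding protein, was at 1037 CPM, compared with 18.8 to 261 CPM in the others. FASN1, fatty acid synthase, was at 747 CPM there and at 749 CPM in sub-cluster 8.

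Sub-clusters 7 and 8 (37 and 17 cells) shared wrapper, which encodes a surface protein of cortex glia, at 1614 and 2579 CPM, compared with 4.18 to 114.8 CPM in the others. They met 3 of 4 cortex glia markers, but zyd and Cyp4g15 were detected in every sub-cluster except 6, so that wrapper alone separated them and no name was given. Sub-clusters 4 and 8 also met 3 of 15 fat body markers, apolpp, FASN1 and Adh, an alcohol dehydrogenase, and were not named for them, since apolpp was at 851 CPM in the alrm class and Adh was also detected in sub-clusters 1, 2 and 5. apolpp was at 3013 CPM in sub-cluster 4, 3404 CPM in sub-cluster 7 and 7709 CPM in sub-cluster 8, compared with 6.27 to 290 CPM in the others. Lsp2 and Fbp2 had 0 UMIs in sub-clusters 4 and 8, and Fbp1 had 0 and 4, the 4 in a single cell. repo was at 290 CPM in sub-cluster 4 and 161 CPM in sub-cluster 8. Sub-cluster 7 was led by Spn42Dd, a serpin, CG43813, CG7997, Jabba, a lipid droplet protein, and CG3270. Sub-cluster 8 was led by Ddc, dopa decarboxylase, at 6234 CPM with a UMI in all 17 cells, followed by MsR1, whose UMIs came from 1 cell, lncRNA:CR45327, CG40470 and chinmo. SPR, the sex peptide receptor, was at 3522 CPM in it. These 17 cells thus held 1124 of the 1276 Ddc UMIs of the class. Among genes at 100 CPM or more in the Ect3/Ork1 class, Ddc was in turn among the 5 lowest in the members relative to that class, at 209 CPM or 0.161-fold (0.151 to 0.171), after yellow-b at 0.0531-fold and before CG3726, CG14301 and Drat at 0.169-fold to 0.194-fold.

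Sub-clusters 1, 2 and 3 were the largest and had leading genes with smaller ratios. Sub-cluster 1 was led by CG43341 and CG34370 (4.51-fold and 3.84-fold the other members), rols, Tl, the Toll receptor, and CG16799. Sub-cluster 2 was led by CG12344 (9.60-fold), wdp (4.06-fold), Epac, lncRNA:CR44997 and 5-HT7, a serotonin receptor. 5-HT7 was at 267 CPM in sub-cluster 2 and 137 CPM over all members (128 to 147), 2.14-fold the Ect3/Ork1 level and 3.34-fold the alrm level. Sub-cluster 3 was led by CG7860, Arc1, CG11378, GILT3 and CG30197 at 3.34-fold or less, with a median of 3805 UMIs a cell, the lowest of the 8. CG7860, Arc1 and CG11378 had a UMI in only 12.7%, 9.15% and 23.9% of its cells, and GILT3 and CG30197 in 52.1% and 97.9%. Sub-clusters 1, 2 and 3 had 4 of the 5 general glial markers and no more than 2 markers of any glial subtype. They were left unnamed. The rule itself limited alrm, Eaat1 and wun2 of the astrocyte-like list and e and Tre1 of the ensheathing list. A name from either list was therefore hardly possible, and its absence says nothing about these cells.

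The collagen IV genes were read together. vkg lies 1417 bp from Col4a1 in the opposite direction (FBgn0016075, 2L, 5012144 to 5028191). It was at 951 CPM in the members (927 to 976), 4.18-fold the Ect3/Ork1 level (3.87 to 4.51) and 3.61-fold the alrm level (3.49 to 3.74). Both genes had a UMI in 876 members (83.9%), Col4a1 alone in 84, vkg alone in 15 and neither in 69. Of the 17 genes of basement membrane and matrix, 10 reached 10 CPM in the members. Leaving out the rule genes, vkg was the single gene of 8 compared that passed 4-fold against the Ect3/Ork1 class (background 3.42%), none of 8 passed against the alrm class, and the medians of the log2 ratios were 0.62 and 1.05. Col4a1 counts toward M, and vkg was found together with it in most members. The higher level of vkg can therefore follow from the rule and is no separate result. Without sub-cluster 6, vkg was at 806 CPM, 3.54-fold the Ect3/Ork1 level, so that none of the 8 passed. SPARC, a collagen-binding protein, was at 4226 CPM, 1.61-fold and 2.40-fold these classes, Timp, an inhibitor of metalloproteinases, at 517 CPM, 1.47-fold and 2.45-fold, and Plod, a collagen lysyl hydroxylase, at 368 CPM, 1.88-fold and 2.04-fold. trol, which encodes perlecan, was at 4092 CPM, 0.954-fold and 1.77-fold. The laminin chains LanA, LanB1 and LanB2 were at 1.47 to 4.75 CPM, and Ndg, encoding nidogen, at 0.164 CPM.

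Transporters of the barrier list were the other group with many calls. Of 9 compared against the Ect3/Ork1 class, 7 were higher and 0 lower, and likewise of 9 against the alrm class, with medians of the log2 ratios of 2.88 and 3.59, beside 0.25 and 0.20 over all genes. They were Tret1-1, Indy, sbm, Oatp74D, Mdr65, Mdr49 and CG6574 in both. These calls rested on sub-cluster 6. Without its 85 cells, Oatp74D was the single gene of 6 compared that remained higher than in the Ect3/Ork1 class, at 85.0 CPM or 7.71-fold, and none of 6 was higher than in the alrm class. Tret1-1 was then at 12.4 CPM and sbm at 44.6 CPM. Oatp58Dc, at 495 CPM, was 1.01-fold the Ect3/Ork1 level and 1.55-fold the alrm level.

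Other groups held few calls. For iron and copper handling, 9 of 11 listed genes were in the file. Leaving out Tsf1, the 6 compared held no call in either comparison, and the ferritin chains Fer1HCH and Fer2LCH were at 977 and 1344 CPM, under the 1050 and 1719 CPM of the Ect3/Ork1 class. Of the lipid carriage genes, fabp was 3.80-fold the Ect3/Ork1 level and 4.39-fold the alrm level, and LpR1, a lipophorin receptor, passed in both and in neither without sub-cluster 6, which held 92.2% of its UMIs. Npc2a was at 1242 CPM, and Lsd-2, a lipid droplet perilipin, at 443 CPM or 0.482-fold the Ect3/Ork1 level. For the JNK and AP-1 list, 5 genes other than the rule genes were compared and none passed 4-fold in either comparison. Of them, kay, the fly Fos, was at 229 CPM, 2.13-fold the Ect3/Ork1 level, and puc at 146 CPM, 1.18-fold. Of 16 immune genes only nec, a serpin, reached 10 CPM, at 80.8 CPM with 78.7% of its UMIs in sub-cluster 6, and it was at 124 CPM in the Ect3/Ork1 class. Among the engulfment genes drpr was at 221 CPM, 1.06-fold and 1.41-fold, and mbc at 60.6 CPM, 0.110-fold the alrm level and the single gene of 8 called lower than in that class.

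The most abundant transcripts outside ribosomal protein and mitochondrial genes were lncRNA:CR34335, CG8369, Obp44a, CG42613, Atpalpha and nrv2, by UMIs at transcript ends and not divided by length. lncRNA:CR34335 was at 47323 CPM in the members and 45574 CPM in the alrm class, and CG8369 at 32935 and 21891 CPM. Obp44a varied widely within the class, from 1361 CPM in sub-cluster 6 to 157820 CPM in sub-cluster 7. Among genes at 100 CPM or more in the alrm class, the lowest ratios to it were those of dpr10 and dpn, at 1.15 CPM (7 UMIs) and 0.819 CPM (5 UMIs) compared with 201 and 135 CPM, followed by CG8861, Pde6, ringer and Act79B. The genes dpr10 and dpn were also low in the Ect3/Ork1 class, at 1.53 and 0.306 CPM.

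The few cells that met the rule in the other pools were too sparse for more than a check of repo. The 11 cells of the dSERT4 and dSERT16 pool had 14 repo UMIs, 308 CPM (168 to 516), and the 7 cells of the pool of day 4 to 6 had 12, 491 CPM (254 to 858). Kenyon-marker cells of these pools had 2.15 and 0.417 CPM, below the 21.8 CPM in the library of the members. Hml and Mhc had 0 UMIs in both. Tret1-1, Indy, CG6126 and CG4797 had UMIs in 1 of the 11 cells and in none of the 7.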

How the data were processed

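Libraries of transcript ends (10x Genomics) were aligned by the authors with Cell Ranger 7.0.0 to dm6, per the labels, and deposited as filtered matrices of raw UMI counts per gene and barcode. The authors' deposited tables of log2 fold changes, p-values and adjusted p-values between arms in Kenyon cell clusters were not used. The members and gene lists were chosen with earlier results of these data known.

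Counts were summed per class and scaled to CPM (counts per 1000000 UMIs). Ratios carry exact conditional binomial 95% intervals, levels exact Poisson and shares Clopper-Pearson intervals. A gene was called at 4-fold, with 10 CPM or more in either class and more than 3 UMIs where higher, and 3 UMIs as the floor of the other class. With 1 library there was no test. The alrm class was compared after the Ebony/Eaat1 class was seen to be small.

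Doublets were predicted with Scrublet in scanpy 1.11.5 and kept. Members were clustered with leidenalg 0.10.2 (2000 variable genes, 10 principal components, 20 neighbours, resolution 0.3, seed 0). A marker was detected with a UMI in 25% of cells, 25% of the CPM of its highest sub-cluster and 4 times the Kenyon-marker CPM, a rule set after seeing the data, and a name needed 3 markers that set the sub-cluster apart. Named genes were the rule genes, listed genes, the 15 with the highest ratio to any other class (at 100 CPM or more in the members), those lowest against each class (at 100 CPM or more there), the 15 most abundant, and the 5 leading each sub-cluster; others were named after their values were seen. Positions are from Ensembl BDGP6, the dm6 assembly, for 17738 of 17824 identifiers.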

Additional observations from a re-analysis of the deposited data

How the results depend on the processing

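Nothing here has a replicate, so all values carry counting error only, and classes that differ by the rule differ by construction. No paired analysis was possible because each pool is 1 library and cells are not mapped to strains or genotypes. The number of sub-clusters was 6 to 11 under its 4 alternatives. At a resolution of 0.6, sub-cluster 6 kept 64 of its 85 cells together, and at 0.15 sub-clusters 1, 2 and 5 merged into 657 cells.

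The member count, 1044, became 969 at 2000 UMIs, 944 at a mitochondrial maximum of 10%, 966 with M of at least 10, 703 with a 4-fold margin, 836 with a Kenyon marker limit of 0.05%, and 955, 672 and 657 without GLaz, Tsf1 and Col4a1 in M. Without sub-cluster 6 it was 959 and with at least 3 rule genes 793, both chosen after seeing the data. repo was 238 to 258 CPM under 15 alternatives, and 258 CPM without Tsf1 in M.

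Without Col4a1 in M, 93 genes were higher and 55 lower than in the Ect3/Ork1 class, 114 higher than in the alrm class, and 72 higher and 353 lower than in the Ebony/Eaat1 class. Without Tsf1 in M, 64 were lower than in the Ect3/Ork1 class. At 2-fold the counts of higher and lower genes were 629 and 126 for the Ect3/Ork1 class, 568 and 177 for the alrm class, and 232 and 461 for the Ebony/Eaat1 class. From 1 CPM, 284 and 50 genes were called against the Ect3/Ork1 class, and 444 were higher than in the alrm class. Thinning to 1000 UMIs gave 38 genes lower than in the Ect3/Ork1 class. Against the Ebony/Eaat1 class, 12 were higher at 2000 UMIs and 69 with a mean over cells. Without sub-cluster 6, 69 were higher and 49 lower than in the Ect3/Ork1 class and 45 higher than in the alrm class, and with at least 3 rule genes 78, 45 and 44. The cause of these shifts was not tested.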

Other observations

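Of the immune genes, nec had a UMI in 150 members, 73 of them in sub-cluster 6, whereas members with Drs or PGRP-SA were few. Drs, which encodes the antifungal peptide Drosomycin, had 45 UMIs in 6 members, 41 of them in 2 cells of sub-cluster 6 and 33 in 1 cell. PGRP-SA, a receptor for bacterial peptidoglycan, had 49 UMIs in 13 members, 34 of them in 3 cells of sub-cluster 6.

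Among clock genes, Clk was at 193 CPM in the members and 16.7 CPM in Kenyon-marker cells, and cry at 200 and 16.7 CPM, while tim was at 45.4 CPM, compared with 81.4 CPM in the Ect3/Ork1 class and 83.3 CPM in the alrm class. Notch was at 1219 CPM, compared with 1321 CPM in the Ect3/Ork1 class and 104 CPM in Kenyon-marker cells. The serotonin transporter gene SerT had 0.328 CPM in the members and 28.6 CPM in neuron-marker cells.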
